A study of Monodelphis domestica and Mus musculus with 2 samples.

Results

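Meg3, Rian, Mirg, Snhg11, Malat1 and Miat are 6 long noncoding RNAs known for high levels in the rodent brain, and they are described here in 1 section of mouse cortex. They were chosen by gene symbol, and all 6 symbols were found among the 61317 features of the mouse table. Stereo-seq, in which an array of barcoded spots takes up the polyadenylated RNA of the tissue laid on it, was run on a cortical section 10 µm thick from 1 wild type male C57BL/6J mouse near postnatal day 40 and, in the same study, on an opossum section that was not analysed here. The reads were assigned to segmented cells, and 4 regions of primary visual cortex (V1), named COL1 to COL4, had been drawn by the authors over cortical layers 2/3 through 6. V1 cells with at least 50 genes and 100 unique molecular identifiers (UMIs, each standing for 1 captured RNA molecule) could carry class and subclass labels, which the authors had transferred from single nuclei of the same species by expression likeness. Of the 9127 such cells, 512 had no class label and 1474 had no subclass label. The section was cut through a block in which several coronal slices of this brain had been embedded together, and the V1 regions come from more than 1 of these slices; which region lies on which slice is not given in the sources used here. No treatment or altered genotype was involved, and the section holds 1 animal, so no test between groups was possible. All differences below are descriptions of this section.

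A long noncoding RNA is transcribed, usually spliced and often polyadenylated like a messenger RNA but is not translated into a protein. Meg3, Rian and Mirg lie one after another in the imprinted Dlk1-Dio3 region, are transcribed in 1 direction from the maternally inherited chromosome, and carry small RNAs in their introns and exons. Malat1 and Miat are retained in the nucleus, where Malat1 concentrates in the speckles that hold splicing factors and Miat forms separate domains. Snhg11 is a host gene of small nucleolar RNAs, and it is used as a neuronal transcript in brain atlases.

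The 3 imprinted genes span 209022 bases of chromosome 12 in the GRCm39 assembly with GENCODE M39 annotation. Meg3 (chr12:109506877-109538165, plus strand) has 85 annotated transcripts, and its canonical transcript joins 7 exons into 1656 bases. Rian (chr12:109570242-109628150, plus strand) starts 32076 bases after Meg3 ends. Its canonical transcript has 26 exons and 3223 bases, and 13 small nucleolar RNA genes and 4 microRNA genes overlap it. Mirg (chr12:109696198-109715898, plus strand) starts 68047 bases after Rian ends, has 17 exons and 3797 bases in its canonical transcript, and overlaps 15 microRNA genes. The protein-coding gene Rtl1 overlaps Rian on the opposite strand, and the noncoding genes Gm59481 and Gm59482 overlap Mirg on the opposite strand. Snhg11 (chr2:158217558-158228071, plus strand) has 5 exons and 5864 bases and overlaps 2 small nucleolar RNA genes. Malat1 (chr19:5845717-5853602, minus strand) is a single exon of 7886 bases, and the noncoding gene Gm59785 and the unclassified Gm37376 overlap it on the opposite strand. Miat (chr5:112361094-112377261, minus strand) has 7 exons and 9163 bases, and Gm26953 overlaps it on the opposite strand. Whether reads were assigned by strand is not given in the sources used here, so reads of a gene and of an opposite-strand partner may not be separable.

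Because the array captures RNA by its poly(A) tail, the 3′ ends of the transcripts are the parts next to the capture site. The last 100 bases of the GENCODE canonical transcript of each gene are shown 5′ to 3′ on the transcribed strand, with the polyadenylation signal (AATAAA, or its common variant ATTAAA) in capitals. They were read from GRCm39 at chr12:109538066-109538165 for Meg3, chr12:109628051-109628150 for Rian, chr12:109715793-109715892 for Mirg, chr2:158227966-158228065 for Snhg11, chr19:5845717-5845816 for Malat1 and chr5:112361094-112361193 for Miat.
Meg3: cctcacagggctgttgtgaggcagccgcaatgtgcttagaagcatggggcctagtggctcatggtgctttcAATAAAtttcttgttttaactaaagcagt
Rian: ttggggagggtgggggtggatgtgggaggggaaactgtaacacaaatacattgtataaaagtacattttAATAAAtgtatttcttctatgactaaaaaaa
Mirg: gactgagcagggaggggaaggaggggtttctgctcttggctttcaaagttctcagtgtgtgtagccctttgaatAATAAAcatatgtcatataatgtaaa
Snhg11: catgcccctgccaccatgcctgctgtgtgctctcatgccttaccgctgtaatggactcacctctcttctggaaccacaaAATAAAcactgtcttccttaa
Malat1: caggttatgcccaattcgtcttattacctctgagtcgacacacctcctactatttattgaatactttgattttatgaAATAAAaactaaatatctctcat
Miat: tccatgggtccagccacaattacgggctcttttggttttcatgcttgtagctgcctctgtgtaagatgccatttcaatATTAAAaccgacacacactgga
All 6 ends held 1 signal on the transcribed strand within the last 50 bases, with 15 bases after it in Snhg11 and 25 in Rian at the extremes. Among the canonical transcripts of 32874 annotated long noncoding RNA genes, 57.1% held AATAAA or ATTAAA in the same window. Miat was the member with ATTAAA, and the other 5 ended with AATAAA.

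The main form of Malat1 is known to be cut by RNase P behind an A-rich tract that the genome itself encodes, which protects the end in a triple helix in place of a poly(A) tail. The stretch holding that run of A is shown because it marks that end. It lies at chr19:5845996-5846107 on the minus strand, bases 7496 to 7607 of the transcript, with the run in capitals.
Malat1 A run: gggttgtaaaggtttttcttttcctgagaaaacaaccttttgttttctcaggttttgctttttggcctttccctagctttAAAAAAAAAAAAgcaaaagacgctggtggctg
The run is 12 A long and ends 299 bases before the annotated transcript end. The longest A run in the other members was 8 in Snhg11, 7 in Rian, 5 in Mirg and 4 in both Meg3 and Miat. A run of 12 or more was present in 5.67% of the 32874 long noncoding RNA transcripts. Counts per gene do not tell which end of Malat1 was captured.

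Miat is also known for copies of TACTAAC, the sequence of the intron branch point, which bind a splicing factor. The motif was searched as these 7 letters on the transcribed strand of the spliced transcripts. Miat held 6 copies, or 0.655 per 1000 bases, of which the 5 that lie in 2 clusters are shown in capitals. The first cluster is at chr5:112365170-112365231 and the second at chr5:112364613-112364683, both on the minus strand.
Miat cluster 1: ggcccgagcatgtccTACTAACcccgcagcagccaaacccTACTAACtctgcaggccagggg
Miat cluster 2: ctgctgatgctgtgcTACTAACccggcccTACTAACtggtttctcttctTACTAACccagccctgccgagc
The other 5 members held 0 copies, and no transcript among the 32874 other than that of Miat held 6 or more.

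The whole section held 120239 cells with 147861707 UMIs and a median of 1134 UMIs per cell. The V1 regions held 9127 cells that passed the filter, with a median of 1305 UMIs and 3550, 1573, 1908 and 2096 cells in COL1 to COL4. Of these cells, 6245 were labelled glutamatergic, 497 GABAergic and 1873 non-neuronal, and 512 had no class label. The class labels were checked against marker genes. Summed Gad1, Gad2 and Slc32a1, which mark GABAergic neurons, stood at 7.89 UMIs per 10000 in GABAergic, 3.19 in glutamatergic and 3.50 in non-neuronal cells. Mbp, a myelin gene of oligodendrocytes, stood at 14.4 in non-neuronal and 8.44 in glutamatergic cells, and Mobp, another, at 5.18 and 2.99. Slc17a7, the vesicular glutamate transporter of cortical glutamatergic neurons, stood at 10.5 in glutamatergic and 10.8 in non-neuronal cells, and the sum of 12 pan-neuronal mRNAs stood at 90.1 and 86.8. Markers of each class were therefore present in cells of every class, and neuronal mRNA did not separate glutamatergic from non-neuronal labels. A level in labelled cells below is the summed UMIs of the gene per 10000 UMIs of those cells, and it includes whatever RNA of neighbouring cells was captured with them.

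Across all V1 cells Meg3 was the highest member at 25.5 UMIs per 10000, with a 95% Poisson interval of 25.2 to 25.7 that covers counting error only. Malat1 followed at 23.9 and Snhg11 at 22.7, so these 3 lay within a narrow range of one another on this scale. The scale is not divided by transcript length. Miat stood at 5.73, Rian at 3.96 and Mirg, the lowest, at 0.802 from 1004 UMIs. Together the 6 genes took 0.826% of all V1 UMIs and 0.771% of those outside V1. Per 1000 bases of canonical transcript the order was Meg3 at 15.4, Snhg11 at 3.87, Malat1 at 3.03, Rian at 1.23, Miat at 0.625 and Mirg at 0.211. Per 1000 bases of all annotated exons joined it began with Malat1 at 3.03, Snhg11 at 2.66 and Meg3 at 1.32, and it went on with Miat at 0.543, Rian at 0.124 and Mirg at 0.0830. The place of Meg3 in the order therefore depended on which length was used. Because RNA is captured by its poly(A) tail and each UMI stands for a captured molecule, a count need not grow with transcript length. The values per 1000 bases therefore do not rank the members by number of molecules.

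At least 1 UMI of Meg3 was present in 87.1% of V1 cells, of Snhg11 in 83.9%, of Malat1 in 73.5%, of Miat in 44.9%, of Rian in 35.7% and of Mirg in 8.86%. Malat1 was found in fewer cells than Snhg11 although its level was higher, and the most UMIs of Malat1 in 1 cell was 44 against 20 of Snhg11. After thinning each cell to 500 UMIs, which left out 514 shallower cells, the shares were 67.3% for Meg3, 62.5% for Snhg11, 52.9% for Malat1, 23.0% for Miat, 16.7% for Rian and 3.56% for Mirg. Meg3, a transcript known mainly from neurons, had a UMI in 84.9% of non-neuronal cells with a median depth of 1245 UMIs and in 87.8% of glutamatergic cells with a median of 1325. Because the non-neuronal share was this close to the glutamatergic one, the shares were not used to say which cells express a member.

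The 4 V1 regions did not hold the members at equal levels. Malat1 stood at 27.8 in COL1, 26.9 in COL2, 18.9 in COL3 and 19.7 in COL4, so COL1 and COL2 were high and COL3 and COL4 low. Snhg11 ran the other way, at 21.6, 20.3, 23.2 and 26.1, with its highest level in COL4. Mirg stood at 0.789, 0.611, 0.838 and 0.937, and Meg3 at 24.6, 24.2, 25.3 and 28.0, each with its lowest level in COL2 and its highest in COL4. Miat had that order of extremes too, at 5.62, 5.36, 5.57 and 6.35. Rian was nearly level at 4.02, 4.12, 3.85 and 3.85. The highest over the lowest region was 1.47 for Malat1, 1.53 for Mirg, 1.28 for Snhg11, 1.18 for Miat, 1.16 for Meg3 and 1.07 for Rian, beside a median of 1.17 over the 2940 genes with at least 1000 UMIs in V1. Only 87 of those genes had a wider spread than Malat1, whereas 2700 had a wider spread than Rian. The regions come from 1 animal and 1 chip and are not replicates, and differences between regions cannot be told apart from differences between the coronal slices that hold them. A member was called past the fold below only where its ratio was at least 1.2 or at most its reciprocal and the direction was the same in all 4.

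The first comparison asked how the members differ between glutamatergic neurons and non-neuronal cells. All 6 pooled levels were higher in glutamatergic cells, Malat1 by 1.46-fold and the others by 1.13- to 1.18-fold. Malat1 was past the fold and was the only member to be so, but among cells labelled in the second of 3 rounds its direction turned, as given with the rounds. Of the 9092 genes with at least 200 UMIs in V1, 8.12% were past it as higher and 6.70% as lower in glutamatergic cells, and the median ratio was 1.18 over the members and 0.990 over all genes. Because the labels were made from expression, in which these genes may have taken part, the ratios describe the labelled cells.

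Malat1 stood at 31.5, 30.2, 20.4 and 20.7 UMIs per 10000 in glutamatergic cells of COL1 to COL4 and at 19.6, 17.7, 16.1 and 17.6 in non-neuronal cells. The glutamatergic level was above the non-neuronal level in each region, and every glutamatergic value was above every non-neuronal one. The pooled levels were 26.5 and 18.2, and the ratio of 1.46 (95% interval 1.41 to 1.51) split into 1.61 and 1.70 in COL1 and COL2 and 1.26 and 1.18 in COL3 and COL4. It was higher than the ratios of 96.1% of the genes tested. No other member came near that percentile, since the next highest were Rian and Mirg at 83.2%. The non-neuronal class was mixed in Malat1, with astrocytes at 35.0, above the pooled glutamatergic level, and oligodendrocytes at 14.8.

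Meg3 stood at 25.6, 25.2, 25.8 and 28.3 in glutamatergic cells and at 21.4, 20.1, 23.8 and 24.2 in non-neuronal cells, with a ratio of 1.18 (1.14 to 1.21). Snhg11 stood at 21.8, 21.0, 23.6 and 26.7 against 20.2, 17.1, 21.7 and 23.0, with a ratio of 1.13 (1.09 to 1.16). Both were higher in glutamatergic cells in each region, with region ratios of 1.25 at most. Miat, at 5.99 against 5.10 when pooled, had a ratio of 1.17 (1.103 to 1.25) and region ratios between 1.11 and 1.35. Rian, at 4.10 against 3.48, had a ratio of 1.18 (1.09 to 1.27), but COL3 had 0.987. Mirg, at 0.837 against 0.710, also had a ratio of 1.18, with an interval of 0.997 to 1.40 that includes 1 and a COL4 ratio of 0.961. For these last 2 genes the direction was therefore not shared by all regions. The share of all genes past the fold with a region left out is not given here. The count of members past the fold was 2, 1, 3 and 2 when COL1, COL2, COL3 or COL4 was left out in turn. Malat1 was in each of these counts, joined by Miat at 1.22 without COL1, by Meg3 at 1.204 and Rian at 1.24 without COL3 and by Mirg at 1.25 without COL4.

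Among 25 of 28 other long noncoding RNAs with enough UMIs, 3 were past the fold as higher in glutamatergic cells, namely Lncpint at 2.14, Kcnq1ot1 at 1.78 and Snhg14 at 1.71. The last 2 are antisense transcripts of other imprinted regions. Neat1, the RNA on which nuclear paraspeckles form, and Sox2ot were lower at 0.542 and 0.592. The median ratio of the 25 was 1.00, beside 0.990 over all genes. Of 17 genes for speckle and RNA-binding proteins, Celf2 was the only one past the fold at 1.73, and of 12 pan-neuronal mRNAs Rbfox3, which encodes a splicing regulator of neuronal nuclei, was the only one at 1.26. A330008L17Rik had a ratio of 1.83 from 260 UMIs without being past the fold, and B830012L14Rik of the imprinted region had 2.43. Malat1 was below these 2 and below Lncpint, Kcnq1ot1, Snhg14 and Celf2 in this ratio and above all 12 pan-neuronal mRNAs.

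The second comparison set GABAergic against glutamatergic neurons. Meg3 and Snhg11 were higher in GABAergic cells by 1.11-fold and 1.099-fold, Rian was nearly equal at 1.06, and Malat1, Mirg and Miat were lower at 0.898, 0.891 and 0.829. Miat was the only member past the fold, and 5.18% of genes were past it as higher and 8.75% as lower in GABAergic cells.

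Miat stood at 5.001, 5.32, 4.64 and 4.99 UMIs per 10000 in GABAergic cells of COL1 to COL4 and at 5.79, 5.72, 5.86 and 6.64 in glutamatergic cells. The GABAergic values were all below the glutamatergic ones, and the pooled ratio had a 95% interval of 0.742 to 0.924 from 353 GABAergic UMIs. The 4 region ratios ran from 0.752 in COL4 to 0.929 in COL2. Without COL3, and likewise without COL4, no member was past the fold, and without COL1 there were 2, Miat at 0.809 and Mirg at 0.832, so this call rests on a ratio close to the limit. Meg3 was higher in GABAergic cells in each region, at 27.2, 27.9, 27.1 and 34.5 against the glutamatergic levels given above, and COL4 had the largest ratio of 1.22. Of the 25 other long noncoding RNAs, 3 were past the fold as higher, with Dlx6os1 the farthest at 6.16, a transcript of the Dlx locus that marks GABAergic neurons, and 3 as lower, with Neat1 the farthest at 0.639. Celf2 at 0.541 and Celf3 at 0.761, genes for RNA-binding proteins, were past the fold as lower and the splicing factor Srsf7 as higher at 1.22, and Rbfox3 was the only pan-neuronal mRNA past it, lower at 0.826.

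The class labels were given in 3 rounds, of which the first 2 asked for the same agreement among neighbouring nuclei and the last for less. By the study's methods, the nuclei were thinned at random in the first round to the number of Stereo-seq cells. Cells labelled in a round were left out of the next, so the first 2 rounds also differed in reference nuclei and in cells. The members were compared between glutamatergic cells labelled in the first round and in the later rounds. This comparison was added after the class results had been seen. Malat1 differed far more between rounds than between classes, at 35.4 UMIs per 10000 in 3805 first-round cells and 12.4 in the later rounds, which held 1536 and 904 cells. Its ratio was 2.85 (95% interval 2.75 to 2.94), higher than for 99.7% of genes, and it was the only member past the fold. Of all genes tested, 10.9% were past it as higher and 9.81% as lower in first-round cells. The other 5 members had ratios between 1.08 for Snhg11 and Miat and 1.19 for Rian, beside a median of 0.958 over all genes.

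Malat1 stood at 42.9, 38.5, 27.4 and 25.9 in first-round glutamatergic cells of COL1 to COL4. In second-round cells it stood at 11.5, 13.6, 11.8 and 12.6, and in cells of the last round at 12.0, 13.9, 12.4 and 14.2. First-round cells were high in every region, and the difference between COL1 with COL2 and COL3 with COL4 was present in first-round cells and not in later ones, where no region stood above 14.2. The ratios of first-round to later-round cells were 3.67, 2.82, 2.28 and 1.97 across COL1 to COL4. The median depth was 1330, 1350 and 1274 UMIs in the 3 rounds and the mitochondrial share 1.64%, 1.96% and 1.97%, and their part in the difference was not tested. GABAergic cells were also highest in the first round, with Malat1 at 35.4, 14.2 and 10.3 in rounds 1 to 3. Non-neuronal cells ran from 19.4 to 16.2 and 12.8, and V1 cells that received no class label stood at 12.1.

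The class comparison of Malat1 moved with the round in which the labels were given. With first-round cells only, the ratio of glutamatergic to non-neuronal cells was 1.82 in place of 1.46, and the ratio of GABAergic to glutamatergic cells was 1.00 in place of 0.898. With these cells 5 members were past the fold as higher in glutamatergic than in non-neuronal cells, with Meg3, Rian and Mirg at 1.26 and Miat at 1.201, and Snhg11 at 1.19 was not. Of all genes 11.0% were past it as higher and 10.2% as lower with first-round labels, so the shares were above the 8.12% and 6.70% of all labelled cells. With second-round labels Malat1 was lower in glutamatergic cells, at 12.2 against 16.2, with a ratio of 0.754 (95% interval 0.687 to 0.829) that was below 1 in each region, from 0.669 in COL1 to 0.948 in COL2. It was the only member past the fold there, beside 8.78% of genes as higher and 4.20% as lower. With labels of the last round it was nearly equal at 12.9 and 12.8, and Miat at 1.21 was the only member past the fold, beside 7.60% and 4.48% of genes. The higher level of Malat1 in glutamatergic cells was thus present in first-round cells and not in the later rounds. Between GABAergic and glutamatergic cells, Meg3 at 1.22 and Miat at 0.765 were past the fold with first-round labels, beside 4.71% of genes as higher and 11.1% as lower. No member was past it with second-round labels, beside 4.23% and 9.73%, and with those of the last round Rian was, lower at 0.726 from 32 GABAergic UMIs, beside 3.18% and 11.8%. Rounds 2 and 3 were set apart in this way after the results had been seen. Whether Malat1 itself helped to place cells in the first round was not tested. Other genes with a large round ratio among the listed RNAs were Lncpint at 3.19, Dleu2 at 2.56, Kcnq1ot1 at 2.24, Snhg14 at 2.18, A330008L17Rik at 1.80 and Ftx at 1.54, which made 6 of 25 past the fold as higher, while Neat1 was the 1 that was lower at 0.757. In the imprinted region, the transcript B830012L14Rik had 3.09 between rounds and 2.43 between glutamatergic and non-neuronal cells, whereas Meg3, Rian and Mirg had 1.16, 1.19 and 1.15 between rounds. Celf2 at 2.15 and Srrm1 at 1.22 were the 2 of 17 speckle and RNA-binding genes past the fold, both higher, and of the 12 pan-neuronal mRNAs Rbfox3 was higher at 1.38 while Tubb3 at 0.827 and Stmn3 at 0.83 were lower. Of the other 6 listed genes of the imprinted region, B830012L14Rik and Begain were the 2 with enough UMIs to be compared.

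**Figure D1:**
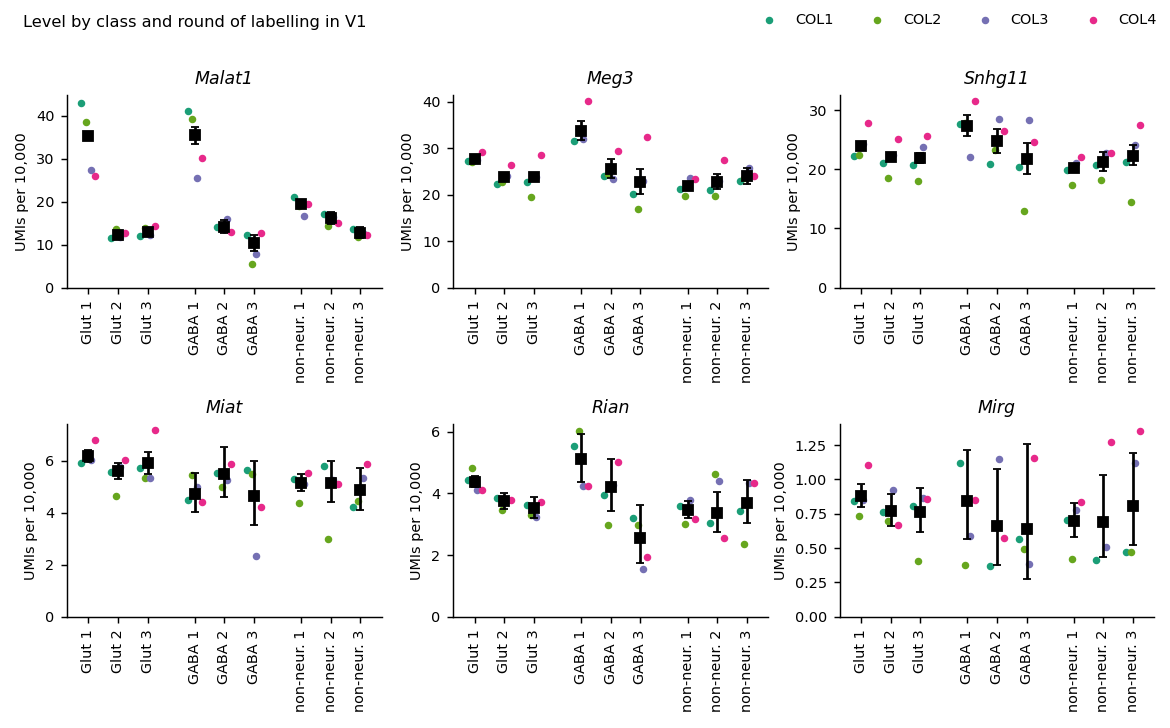
Level of each gene in UMIs per 10000 (vertical axis) by class and by round of labelling (horizontal axis); the large markers are pooled cells with the 95% counting interval and the small dots are the 4 V1 regions. Malat1 stands at 35.4 in first-round glutamatergic and GABAergic cells and between 10.3 and 14.2 in the later rounds, while the other 5 genes stay within a narrower range.

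**Figure D2:**
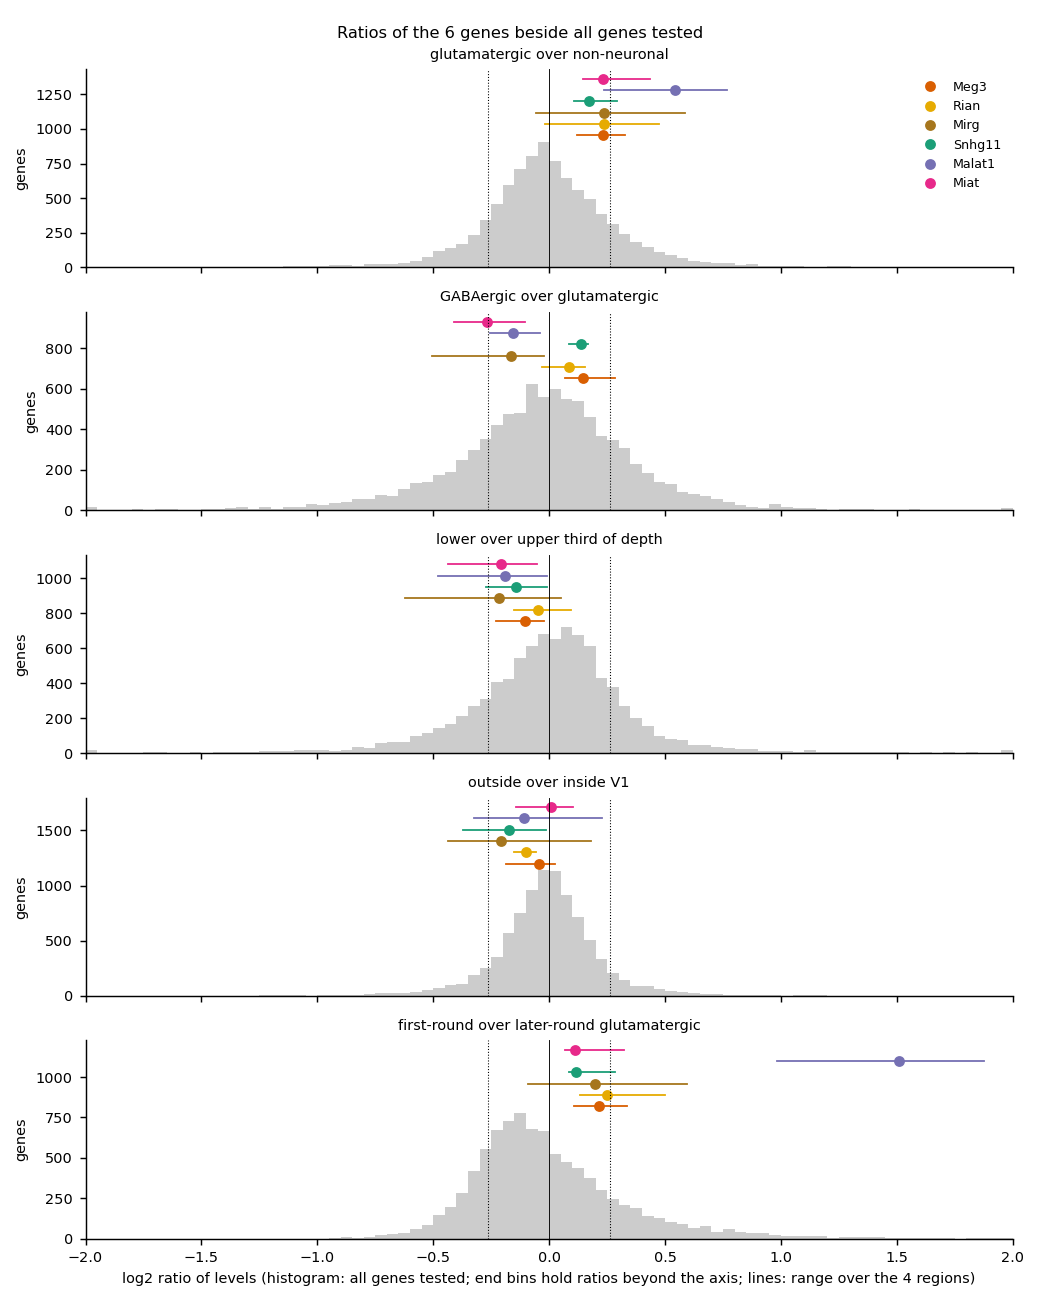
Log2 ratio of levels (horizontal axis) in the 5 comparisons, with a histogram of all 9092 genes tested in grey (vertical axis, number of genes) and each of the 6 genes as a dot whose line spans the 4 V1 regions. Malat1 lies toward the right edge for glutamatergic over non-neuronal cells and beyond nearly all genes for first-round over later-round cells.

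Malat1 also varied with the UMI total of a cell, though not in the same way in every region. Glutamatergic cells split into quartiles of their UMI total, with medians of 703, 1139, 1530 and 2129 UMIs, had Malat1 at 21.9, 23.2, 25.2 and 30.3 UMIs per 10000. By region the lowest quartile stood at 23.4, 24.4, 16.9 and 22.4 in COL1 to COL4. The top quartile stood at 37.6 and 37.1 in COL1 and COL2 and at 21.0 and 20.3 in COL3 and COL4. The increase was thus largest in COL1 and COL2, and in COL4 the top quartile was below the lowest. In non-neuronal cells the pooled quartiles had 19.1, 19.99, 17.6 and 17.3, with no such increase.

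Across 17 subclasses of at least 25 cells, Malat1 had the widest range among the 5 members with UMIs in every subclass, 2.95-fold from astrocytes at 35.0 to endothelial cells at 11.9. The pooled levels fell into a higher and a lower set, which did not hold within every region. Astrocytes (33.4 to 36.6), layer 6 intratelencephalic neurons at 32.3 (30.9 to 33.7) and layer 2/3 neurons at 30.3 (29.5 to 31.1) led the higher set, followed by Pvalb interneurons at 28.9, L5PT at 28.7, Lamp5 at 27.2, L6CT at 26.9, L4 at 26.2, Vip at 24.7, L5IT at 24.1 and Sst at 23.7. The lower set held oligodendrocytes at 14.8 (from 1229 UMIs), their precursors at 14.4, L5NP neurons at 13.3, L6b neurons at 12.3, microglia at 12.1 and endothelial cells. Of 16 pairs of neighbours in this order, 15 had overlapping intervals, and the exception was the step from Sst to oligodendrocytes. Non-neuronal subclasses held both ends of this pooled order. Within regions the sets overlapped: Lamp5, with 35 cells, stood at 9.09 in COL2 and 10.7 in COL4 beside 13.1 and 14.3 in oligodendrocytes, Pvalb at 14.96 in COL3 beside 15.9 in oligodendrocytes, and Vip, with 25 cells, at 13.3 in COL2 beside 14.7 in L5NP.

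Within most subclasses the level again differed by round. This split took only cells whose class label was that of their subclass, which were 93.1% of L6CT neurons and 81.8% of oligodendrocytes. First-round and later-round cells had Malat1 at 45.0 and 13.5 in L6IT, 42.3 and 11.9 in L6CT, 34.9 and 11.2 in layer 2/3, 32.3 and 13.0 in L4, 43.1 and 12.4 in Pvalb and 38.0 and 21.0 in astrocytes. In oligodendrocytes the values were 14.6 and 14.98 and in microglia 11.5 and 12.2, so these subclasses were low in both. The share labelled in the first round of the class labels was taken over all cells of a subclass, including those left out of this split. It was 80.5% for both astrocytes and layer 2/3 neurons, 46.5% for L6CT neurons and 35.8% for oligodendrocyte precursors.

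The other members varied less between subclasses. Meg3 ranged 1.57-fold, from Vip interneurons at 34.3 (28.3 to 41.2, 25 cells) through L5PT neurons at 31.1 (29.5 to 32.6), Sst at 30.7 and Pvalb at 29.6 to astrocytes at 21.8 (20.6 to 23.1). The 5 non-neuronal subclasses and Lamp5 interneurons held the 6 lowest places for Meg3. Snhg11 ranged 1.59-fold, from Lamp5 at 29.6 (24.6 to 35.3, 35 cells) and Pvalb at 26.0 to microglia at 18.6 (from 476 UMIs). In layer 5, L5PT neurons, which project to subcortical targets, had Meg3 and Miat in second place, while L5IT neurons had the highest Rian.

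Miat ranged 2.11-fold, from Lamp5 at 8.89 (6.26 to 12.3, from 37 UMIs) and L5PT at 7.35 (6.62 to 8.15) to Pvalb at 4.30 (3.56 to 5.16) and Vip at 4.21. Its L5PT level was 6.77, 7.58, 6.97 and 8.25 in COL1 to COL4, above the glutamatergic level of each region. Rian ranged 2.35-fold, from L5IT at 5.77 (4.79 to 6.88, from 123 UMIs) to L6b at 2.45, which rests on 9 UMIs. Mirg was highest in L5PT at 0.962, L4 at 0.926 and layer 2/3 at 0.922, and no UMI was found in 35 Lamp5 cells, which allows a level of up to 0.886 at the upper 95% limit. For Meg3, Snhg11, Miat, Rian and Mirg the intervals of all 16 neighbouring pairs overlapped, so no single step in these orders exceeded counting error.

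**Figure D3:**
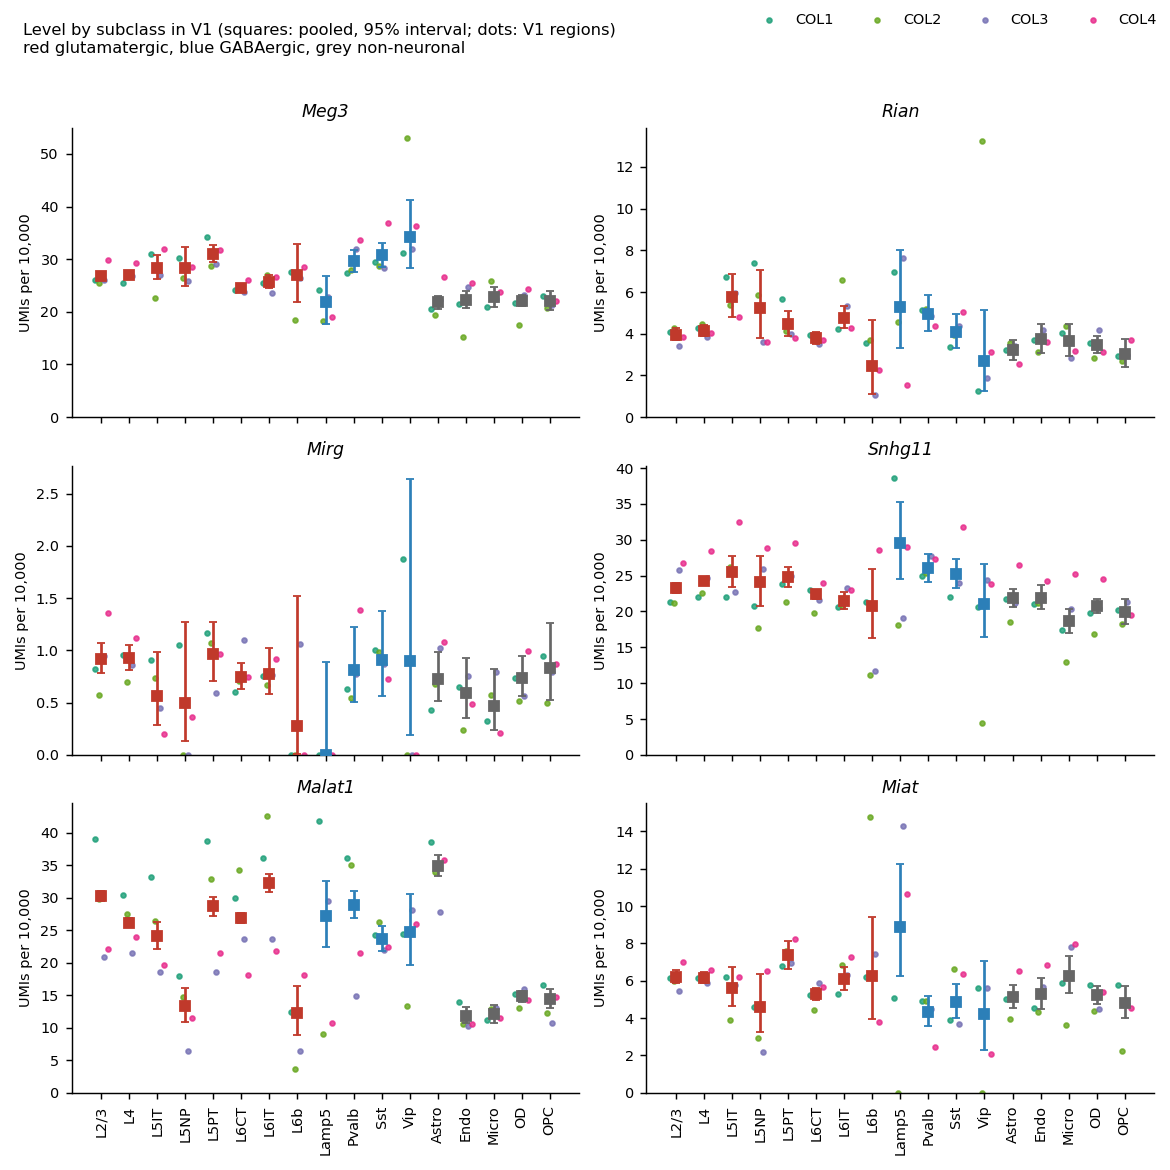
Level of each gene in UMIs per 10000 (vertical axis) in the 17 subclasses with at least 25 cells (horizontal axis); squares with bars are pooled V1 cells with the 95% counting interval and dots are the 4 V1 regions. Malat1 falls from 23.7 in Sst to 14.8 in oligodendrocytes (OD), with L5NP at 13.3 and L6b at 12.3 as the low neuronal subclasses.

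The genes whose log2 level over the 17 subclasses was most like each member were taken from the 2940 genes with at least 1000 UMIs. The subclasses share 1 section and differ in depth and cell number, so the correlations are descriptions. For Meg3 they were Chsy3 (r = 0.81), Fgf12 (0.80) and Park2 (0.78), for Malat1 Adgrl3 (0.77), Plcb1 (0.76) and Tnrc6c (0.74), and for Snhg11 C230004F18Rik (0.80), Fgf14 (0.78) and Il1rapl1 (0.77). For Miat they were Dynlt3 (0.85), Arhgap21 (0.82) and Ppp1r12c (0.81), and for Rian Samd12 (0.88) and Kpnb1 (0.81). For Mirg, Rapgef5 (0.97), Dync1li1 (0.97) and Rtraf (0.96) were closest, with values set largely by the 0 in Lamp5 cells. No member was among the 3 closest genes of another.

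Within the imprinted region, Rian and Mirg were set against Meg3 in the same cells. There were 15.6 UMIs of Rian per 100 of Meg3 in V1 (95% interval 15.1 to 16.05) and 14.99 outside it. The same ratio was 15.6 in glutamatergic, 15 in GABAergic and 15.6 in non-neuronal cells, so the classes differed by less than the counting intervals. Across V1 regions it ran from 13.7 to 16.98, a wider range than between classes. Among subclasses it was highest in Lamp5 at 24.2 (14.4 to 38.8, from 22 UMIs of Rian), L5IT at 20.3 (16.6 to 24.7) and L6IT at 18.5 (16.4 to 20.9), and lowest in Vip at 7.89 (3.52 to 15.5, from 9 UMIs). The intervals of L5IT and L6IT lay above that of V1. Mirg had 3.15 UMIs per 100 of Meg3 in V1 and 2.81 outside, with counting intervals of 2.96 to 3.35 and 2.75 to 2.87. The V1 regions ran from 2.52 to 3.34 in this ratio, a range that includes the value outside.

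Symbols of Mirg, Malat1 and Rian were shared by more than 1 feature, 17 features in all carrying the 6 symbols. The feature with the most UMIs was used, which held 99.99% of the UMIs of Malat1 and nearly all of those of Rian but 71.9% of those of Mirg. Another 27.3% lay in the feature that GENCODE M39 names Gm59481, on the strand opposite to Mirg, with 287 UMIs in V1.

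V1 was divided into an upper, a middle and a lower zone of equal relative depth, from the layer 2/3 side to the layer 6 side. All 6 members had a lower pooled level in the lower than in the upper zone, and none was past the fold. The ratios of the lower to the upper zone were 0.859 for Mirg, 0.867 for Miat, 0.877 for Malat1, 0.907 for Snhg11, 0.929 for Meg3 and 0.967 for Rian. The direction was not the same in every kind of cell, since among non-neuronal cells the ratio was 1.26 for Mirg and 1.1006 for Rian. Mirg was not past the fold there, because its direction was not shared by all regions. Malat1 had 0.728 in non-neuronal cells, past the fold as lower at depth, and 0.977 in glutamatergic cells. Rian had 1.00 with the mean of per-cell levels. Of all genes, 9.92% were past the fold as higher and 11.2% as lower in the lower zone, with a median ratio of 1.01. Miat stood at 5.72, 5.79, 5.67 and 7.37 in the upper zone of COL1 to COL4 and at 5.52, 4.62, 5.16 and 5.44 in the lower zone. For Miat the lower zone was below the upper zone in each region and also below every value of the upper zone. Without COL1 the pooled ratio of Miat was 0.808, and it alone was past the fold. Meg3 was highest in neither, at 25.5 in the upper, 27.4 in the middle and 23.7 in the lower zone. In these sums a change in the mixture of cells and a change in the level per cell cannot be told apart. Of 25 other long noncoding RNAs, 7 were past the fold as lower at depth, with A330008L17Rik the farthest at 0.398, and Neat1 was the 1 that was higher at 1.36. Among the pan-neuronal mRNAs, Map1b, Map2, Uchl1 and Eno2 were higher at depth by 1.24- to 1.30-fold and Rbfox3 was lower at 0.732, and of the speckle and RNA-binding genes Celf2 was the only one past the fold, lower at 0.801.

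In 10 depth bins the pooled level of Malat1 had 2 maxima, of which the deeper one was higher in COL1 and COL2 than in COL3 and COL4. The pooled level was 24.8 UMIs per 10000 in bin 1, 28.3 in bin 3, 18.7 in bin 7, 26.5 in bin 9 and 21.4 in bin 10. The same course was present in glutamatergic cells, with 29.3 in bin 3, 20.5 in bin 7 and 30.8 in bin 9 when pooled. By region, glutamatergic cells of COL1 to COL4 had 21.4, 21.9, 19.8 and 18.9 in bin 7. In bin 9 they had 36.998, 39.6, 23.1 and 19.8. The step from bin 7 to bin 9 was large in COL1 and COL2, small in COL3 and nearly absent in COL4. Bin 7 was not the low point before it in every region, since COL3 had 15.6 in bin 6 and COL4 had 15.8 in bin 8. In first-round glutamatergic cells pooled Malat1 ran from 29.3 in bin 5 to 46.2 in bin 9, and in later-round cells it stayed between 11.2 and 13.5 in every bin. The number of first-round cells per bin moved with it, from 625 in bin 3 to 139 in bin 7 and 317 in bin 9. Non-neuronal cells went from 24.9 in bin 4 to 14.6 in bin 10.

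Meg3, Snhg11, Rian and Miat had flatter profiles than Malat1, and the range of Mirg rests on few UMIs. Meg3 rose from 22.3 in bin 1 to 28.2 in bin 5 and came to 22.8 in bin 10. Snhg11 had its highest level of 24.8 in bin 2 and its lowest of 20.3 in bin 10. Rian was lowest in bin 1 at 3.33 and highest in bin 4 at 4.23. Miat went from 6.38 in bin 3 to 4.97 in bin 8. Mirg had 1.09 in bin 3 (0.921 to 1.29, from 142 UMIs) and 0.672 in bin 9 (0.546 to 0.817, from 100 UMIs). The highest over the lowest bin was between 1.22 and 1.29 for Meg3, Snhg11, Miat and Rian, 1.52 for Malat1 and 1.63 for Mirg. With so few UMIs per bin, counting error widens this ratio for Mirg, so it does not rank Mirg above Malat1.

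**Figure D4:**
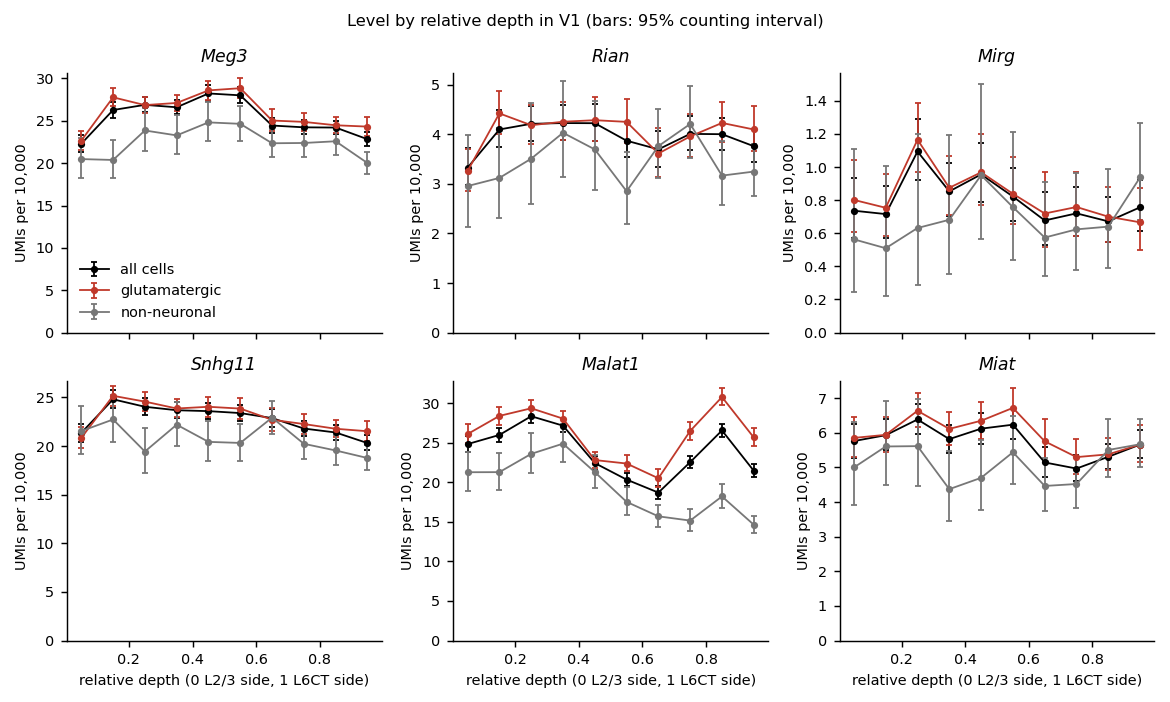
Level of each gene in UMIs per 10000 (vertical axis) in 10 bins of relative depth (horizontal axis, 0 at the layer 2/3 side and 1 at the layer 6 side) for all V1 cells, glutamatergic cells and non-neuronal cells; bars are 95% counting intervals. Pooled Malat1 in glutamatergic cells has 29.3 in bin 3, 20.5 in bin 7 and 30.8 in bin 9, where by region (not drawn) COL1 and COL2 reach 36.998 and 39.6 and COL4 has 19.8, and Meg3 in all cells is highest in bin 5 at 28.2.

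Outside the V1 regions, 110881 cells passed the same filter. None of the 6 members was past the fold between outside and inside, while 7.46% of all genes were past it as higher and 8.75% as lower outside. The ratios of outside to inside were 0.865 for Mirg, 0.886 for Snhg11, 0.926 for Malat1, 0.933 for Rian, 0.969 for Meg3 and 1.00 for Miat. With only the outside cells within 1000 µm of a V1 cell the ratios were 0.920 for Mirg, 0.944 for Snhg11, 0.953 for Malat1, 0.984 for Rian, 1.01 for Meg3 and 1.01 for Miat, so the direction of Meg3 turned. The myelin gene Mbp stood at 9.70 UMIs per 10000 in V1, 14.6 outside and 19.4 in the nearby outside cells, and its part in these ratios was not tested. Snhg11, at 20.1 outside and 22.7 inside, was lower outside than in each of the 4 regions, with ratios from 0.772 to 0.991. Rian was lower outside than in each region too, with ratios from 0.899 to 0.960. Malat1 was lower outside than in COL1 and COL2, at 0.799 and 0.823, and higher than in COL3 and COL4, at 1.17 and 1.13. Without COL1 its pooled ratio was 1.03, so its direction rests on 1 region. Without COL2, Mirg was past the fold at 0.824. Of the 25 other long noncoding RNAs 3 were higher outside, Sox2ot the farthest at 1.33, and 4 lower, Mir124-2hg the farthest at 0.742, while Snap25 at 0.800 and Rbfox3 at 0.825 were the 2 pan-neuronal mRNAs past the fold and no speckle or RNA-binding gene was.

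To follow the members over the whole section, cells were summed in 198 tiles of 500 µm with at least 100 cells. Meg3 ranged from 12.2 to 37.4 UMIs per 10000 between tiles, Malat1 from 13.7 to 40.01, Snhg11 from 9.07 to 31.1, Miat from 3.00 to 9.59, Rian from 1.70 to 5.46 and Mirg from 0.202 to 1.36. These ranges were wider than those between V1 subclasses for Meg3, Snhg11, Miat and Rian. The tiles share 1 section and neighbouring tiles share tissue, so the correlations that follow are descriptions. Over the 198 tiles Meg3 and Snhg11 had a Pearson r of 0.878, although they lie on different chromosomes. Meg3 had 0.761 with Rian and 0.682 with Mirg, and Snhg11 had 0.752 with Rian and 0.707 with Mirg. Miat had 0.409 with Meg3. Malat1 had between -0.07 and 0.19 with the other 5.

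A set of tiles combined low Meg3 with high Malat1. The 5 tiles richest in Prox1, a marker of dentate granule cells, held it at 2.33 to 2.57 UMIs per 10000 beside a median tile of 0.175, and contained no V1 cells. In these 5 tiles Meg3 lay between 12.2 and 15.2 with a median of 13.1, beside 24.2 in the median tile of the section. Snhg11 had a median of 9.83 beside 20.2, Rian 1.94 beside 3.66 and Mirg 0.356 beside 0.690. Malat1 and Miat were on the other side, with medians of 26.7 beside 21.3 and 7.27 beside 5.66. The tile with the lowest Meg3 was also the one with the lowest Snhg11 and the lowest Rian, and the tile with the highest Malat1, at 40.01, was another of the 5. In the 5 tiles richest in Slc17a6, the vesicular glutamate transporter of subcortical neurons, Meg3 had a median of 31.7, Mirg of 1.15 and Malat1 of 24.4. These tile sets were picked by marker level after the section had been examined.

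**Figure D5:**
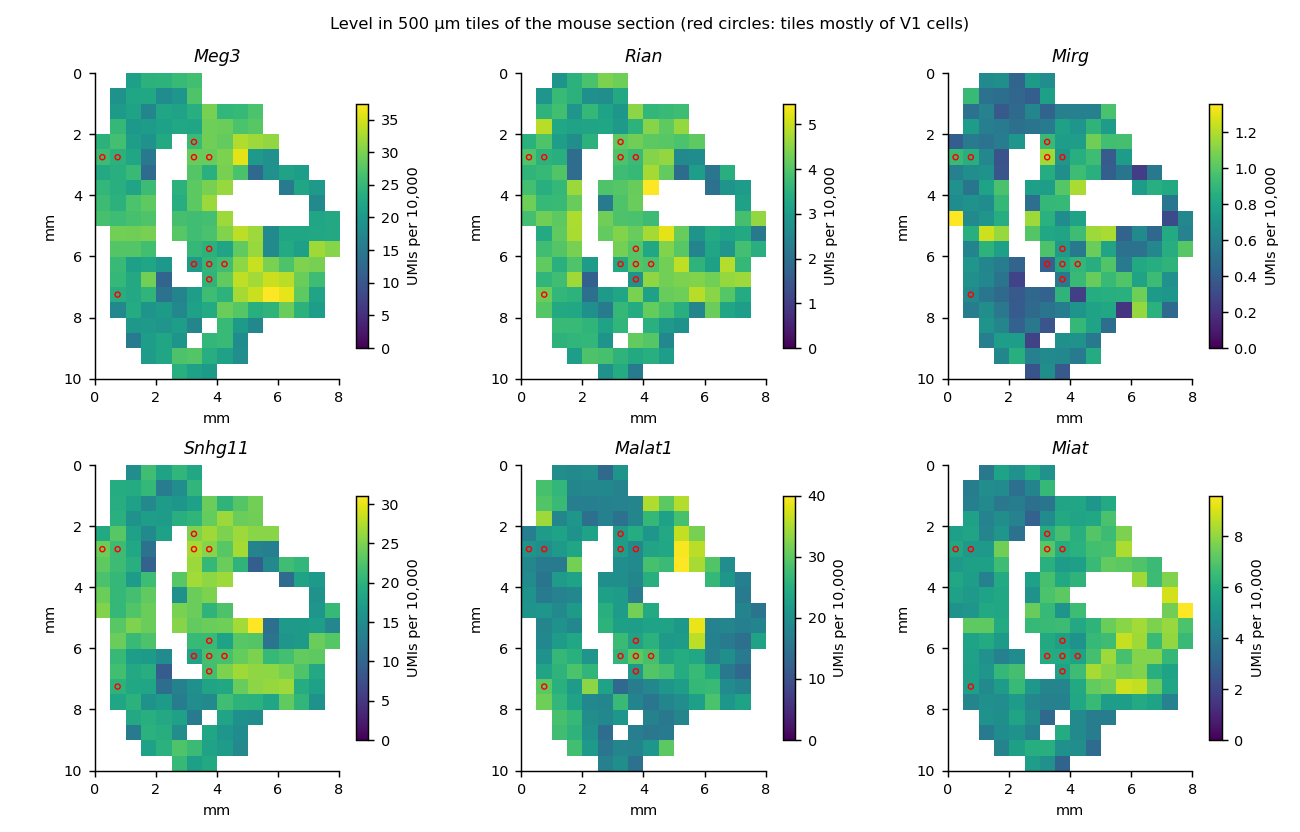
Level of each gene in UMIs per 10000 (colour scale) in tiles of 500 µm across the mouse section (both axes in mm), with tiles made mostly of V1 cells circled in red. Meg3, Snhg11 and Rian share their lowest tile, at 12.2, 9.07 and 1.70, and Malat1 reaches 40.01 in a tile where Meg3 stands at 12.8.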

How the data were processed

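The authors deposited whole-number UMI counts per gene and segmented cell for the section, with tables of cell positions, labels and features. Per the study's methods, reads were processed with the Stereo-seq Analysis Workflow and aligned to GRCm39, cells with fewer than 50 genes or 100 UMIs were removed, and class and subclass labels were assigned in 3 rounds by nearest neighbours in a joint space with nuclei. The handling of reads by strand is not given in the sources used here. Counts were summed over cells and given per 10000 UMIs with exact Poisson intervals, and ratios with exact binomial intervals at 95%. These cover counting error only. With 1 animal no test was run, no p-value is given and cells were not treated as replicates. Relative depth was scaled per V1 region, from the layer 2/3 side to the L6CT side, and 2 spatial units were taken as 1 µm. Past the fold meant a pooled ratio of at least 1.2-fold with the same direction in all 4 regions, and the background was every gene with at least 200 UMIs in V1. A pseudocount of 0.01 was added before log2 in the likeness measure. The genes named were the 6 members, the members of 4 gene lists farthest from a ratio of 1 or past the fold, and the 3 genes most like each member over subclasses, of which 1 is not reported here. Markers of cell types were named as checks of the labels and of place, and Begain, outside this rule, was named after its values had been seen. Doublets were not called, since a segmented cell can hold RNA of its neighbours in any case. The members and the lists were chosen with earlier results of these data known, and the comparison of label rounds, the tile sets and the alternatives on subclass agreement, on summed features and on later label rounds were added after the data had been seen. The calling rule was tested on simulated counts. Matrices were summed with scipy 1.17.1 and numpy 2.4.6, tables were built with pandas 2.3.3 under Python 3.11.15, and plots were drawn with matplotlib 3.10.9. Sequences and gene models came from GRCm39 with GENCODE M39.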

Additional observations from a re-analysis of the deposited data

How the results depend on the processing

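The counts of members past the fold came from 1 animal and carry no test. They were the same with a stricter cell filter (200 genes and 300 UMIs), without mitochondrial genes or the 6 members in the total, and with all features of a symbol summed. For glutamatergic against non-neuronal cells (1 member), a fold of 1.1 gave 4, a fold of 1.5 gave 0, first-round labels gave 5, cells with subclass and class in accord gave 4, and leaving out a region gave 1 to 3. For GABAergic against glutamatergic cells (1 member) the same alternatives gave 4, 0, 2 and 2, and leaving out a region gave 0 to 2. With labels of the second or the third round alone, an alternative chosen after seeing the data, these counts were 1 and 1 in the first comparison and 0 and 1 in the second. For depth (0 members) a fold of 1.1 gave 3, non-neuronal cells 1, an equal upper and lower part 1, and leaving out a region 0 to 1. For outside against inside V1 (0 members) a fold of 1.1 gave 1 and leaving out a region 0 to 1. For label rounds (1 member) the mean of per-cell levels gave 2, a fold of 1.1 gave 3 and leaving out a region 1 to 3. The cause of these moves was not tested. For altered folds, altered cells and left-out regions, the share of all genes past the rule is not given here. The label rounds, whose shares stand above, are the exception. A looser fold also lets more genes pass, so these counts are not results about the members. Over all alternatives, a member's ratio moved by less than the spread between regions in 327 cases and by more in 26, and in 1 further case a called ratio turned, that of Malat1 in glutamatergic over non-neuronal cells, which was 0.754 with second-round labels. Among the 26, the depth ratio in non-neuronal cells was 1.26 for Mirg and 1.1006 for Rian. With at least 1000 UMIs per gene, 4.73% of genes were higher outside V1. Without the cell filter only the comparison of place could be run, because the 7 V1 cells below the filter have no class or depth. No paired analysis was possible because there is 1 mouse sample. Depth limits Mirg most, with 1004 UMIs in V1.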
